A study of Mus musculus with 52 samples.

Results

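The genes described here are those of the mouse mitochondrial chromosome, chosen because their names begin with mt-. The GRCm38 annotation (GENCODE M21) holds 37 such genes, of which 13 encode messenger RNAs, 2 encode ribosomal RNAs and 22 encode transfer RNAs, and 33 of them are listed among the 39144 genes of the expression tables. All 13 messenger RNAs and both ribosomal RNAs are listed in at least 1 tissue, together with 18 transfer RNAs. The transfer RNAs mt-Tf, mt-Ts1, mt-Td and mt-Tk are listed in no tissue. Of these, mt-Ts1, mt-Td and mt-Tk lie between the ends of a stretch copied on chromosome 1, described below. They were not compared with it, so their absence is not read as absence of the transcript. Per tissue, 32 members are listed in eyes and in heart, 31 in brain, liver and mouse embryonic fibroblasts (MEFs), 29 in spleen, 28 in testes and 25 in prostate, and 24 members are listed in all 8 tissues.

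RNA was sequenced from male wild-type mice and from male mice homozygous for a deletion of Tug1 (Tug1-/-), a long noncoding RNA locus, in which a lacZ cassette replaced the gene body and the promoter and first exon were kept. Testes came from 4 wild-type, 4 Tug1-/- and 3 rescue mice, the last being Tug1-/- mice that carried a doxycycline-inducible Tug1 transgene and the CAG-rtTA3 activator and were fed doxycycline. Eyes, heart, liver, spleen and passage-2 MEFs had 3 samples of each genotype, prostate had 3 wild-type and 2 Tug1-/- samples, and the brain means rest on libraries outside this series. The labels give a mixed C57BL/6J and 129S6 background for every group. They add that the Neo cassette is absent from the tissues and MEFs of both genotypes and from wild-type testes, and that Neo and LacZ are present in Tug1-/- and rescue testes. The tissues came from adult mice whose ages are not given for these libraries, and the MEFs from littermate embryos.

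Mitochondrial DNA is a small circle present in many copies per cell. Both of its strands are transcribed as long precursors, and the transfer RNAs that punctuate them are cut out to release the messenger and ribosomal RNAs. The proteins it encodes are core subunits of respiratory complexes I, III and IV and of the ATP synthase, and heart, brain and other tissues with a high demand for respiration are known for high levels of these RNAs. Nuclear genomes also hold fragments of mitochondrial DNA, and reads from a mitochondrial gene with a perfect nuclear copy have no unique position in the genome.

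Levels are the authors' mean TPM of each group, TPM being a measure of a gene's part of the transcript pool that takes its length into account. Because only group means were used, no spread over samples is given and no difference below was tested. No neighbours in any order of levels can be said to differ beyond their spread. A member is counted as past the limit when its means differ by more than 1.5-fold and at least 1 of them reaches 1 TPM. Outside testes, the mean normalized count of a gene, averaged over the samples of both genotypes, shows how many reads stand behind a value. Tug1 itself was at 10.1 to 57.5 TPM in wild type and at 0.00832 to 0.885 TPM in Tug1-/- samples, and rescue testes held 1.605 TPM. Each of the 8 sets of 4 tissue markers was highest in the wild-type group of the tissue it names, although 2 of the prostate markers, Sbp and Spink1, were at only 1.64 and 5.39 TPM there.

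The sequences that bear on what can be read from these data are the mitochondrial genes with a copy on chromosome 1. There, 7 annotated pseudogenes between 24611535 and 24616197 (GRCm38, minus strand) line up with the mitochondrial stretch from base 6381 to base 11042. The copies Gm28661 of mt-Co2, Gm10925 of mt-Atp6, Gm28437 of mt-Co3, Gm10222 of mt-Nd4l and Gm28439 of the first 876 of the 1378 bases of mt-Nd4 are identical to the mitochondrial transcripts over 681, 678, 783, 294 and 876 bases. Gm29216 matches the last 492 bases of mt-Co1 at 486 bases, and the last 479 of the 1545 bases of mt-Co1 are identical to it, so the levels and shares of mt-Co1, like those of mt-Nd4, leave out reads that fall wholly within the copied part. Gm28438 matches mt-Nd3 at 344 of 345 bases, and the only difference between them is T3C, with positions counted from 1 at the first base of mt-Nd3 (base 9461 of the mitochondrial chromosome). The first 30 bases of this pair are shown, from the GENCODE M21 transcripts, because the pair turns out to differ between the testes groups; the capital marks the differing base, mt-Nd3 lies at chrM:9459-9488 (plus strand) and Gm28438 at chr1:24613090-24613119 (minus strand).
mt-Nd3: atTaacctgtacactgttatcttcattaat
Gm28438: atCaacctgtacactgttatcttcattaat

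Transfer RNAs are shown where the results turn on them, each whole, as DNA letters, with the anticodon in capitals. The transfer RNA for proline (mt-Tp, chrM:15356-15422, minus strand) and that for glutamate (mt-Te, chrM:14071-14139, minus strand) had the highest median levels. Those for asparagine (mt-Tn, chrM:5089-5159), cysteine (mt-Tc, chrM:5192-5257) and tyrosine (mt-Ty, chrM:5260-5326), all on the minus strand, stood out in MEFs and testes. Those for glycine (mt-Tg, chrM:9391-9458) and arginine (mt-Tr, chrM:9808-9875), on the plus strand, flank mt-Nd3 and differed between the testes groups.
mt-Tp: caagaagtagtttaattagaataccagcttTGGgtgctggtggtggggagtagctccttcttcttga
mt-Te: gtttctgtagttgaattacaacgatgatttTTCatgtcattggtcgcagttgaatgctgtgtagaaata
mt-Tn: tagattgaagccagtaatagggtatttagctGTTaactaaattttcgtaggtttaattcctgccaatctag
mt-Tc: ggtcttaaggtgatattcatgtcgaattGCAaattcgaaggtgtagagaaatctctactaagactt
mt-Ty: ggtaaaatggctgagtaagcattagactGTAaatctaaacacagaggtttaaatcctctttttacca
mt-Tg: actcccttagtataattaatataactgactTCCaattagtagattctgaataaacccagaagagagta
mt-Tr: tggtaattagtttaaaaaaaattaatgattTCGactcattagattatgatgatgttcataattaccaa

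The libraries were made from polyadenylated RNA, and in mitochondria the poly(A) tail can also complete a stop codon. By their annotated ends, 10 of the 13 messenger RNAs close with a whole stop codon, whereas mt-Co3, mt-Nd4 and mt-Cytb close with a single T that a tail turns into a stop. Their last 21 bases are shown with that base in capitals, at chrM:9370-9390 for mt-Co3, chrM:11524-11544 for mt-Nd4 and chrM:15268-15288 for mt-Cytb, all on the plus strand. mt-Nd4 and mt-Cytb were among the abundant messenger RNAs in every tissue, as were genes that carry a whole stop codon.
mt-Co3: ccatttattgatgaggatctT
mt-Nd4: taattacaggcctgacaataT
mt-Cytb: aaatactaaaattatatccaT

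In wild-type tissues the summed mean TPM of the messenger RNAs was highest in heart, at 440801, which was 44.1% of the summed TPM of that table. It was 128166 in brain, 110038 in liver, 88781 in eyes, 51221 in spleen, 46765 in prostate, 46058 in MEFs and 16535 in testes. Heart was thus 3.44-fold above brain, the next tissue, and 26.7-fold above testes, the lowest. In mean normalized counts, which are not corrected for gene length, the messenger RNAs made up 24.4% of all counts in heart, 5.45% in liver, 4.18% in brain, 3.59% in eyes, 2.12% in spleen, 1.85% in prostate and 1.33% in MEFs. All these sums, and the shares of them below, rest on uniquely mapped reads. Genes copied on chromosome 1 are missing from them in part or almost whole. The shares are thus not the full composition of the mitochondrial messenger RNA.

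The messenger RNAs fell into 2 sets by level. The set of 7 that was high in every tissue comprised mt-Nd1, mt-Nd2, mt-Nd4, mt-Nd5 and mt-Nd6 of complex I, the NADH dehydrogenase that is the entry point of the chain, mt-Cytb of complex III and mt-Co1 of complex IV, the cytochrome c oxidase. Of these, mt-Co1, its catalytic core, was the most abundant in each of the 8 wild-type tissues. It stood at 147917 TPM in heart, 42163 in brain, 37659 in liver, 28733 in eyes, 20565 in spleen, 15740.0 in MEFs, 12329 in prostate and 6624 in testes. Its share of the summed messenger RNA, as counted, lay between 26.4% in prostate and 40.1% in spleen.

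The next in most tissues was mt-Cytb, the cytochrome b of complex III. It was at 78687 TPM in heart, 23452 in brain, 20868 in liver, 19083 in eyes, 11129.9 in prostate, 10251 in spleen, 9615 in MEFs and 2565 in testes. In testes mt-Nd1 was above mt-Cytb, the ratio of mt-Cytb to mt-Nd1 being 0.956 there and between 1.12 and 1.52 in the other tissues. mt-Nd1, which helps form the quinone site of complex I, was at 69976 TPM in heart, 18455 in brain, 13805 in eyes, 13745 in liver, 7645 in prostate, 7324 in spleen, 6931 in MEFs and 2681 in testes.

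The remaining complex I subunits of this set were lower. mt-Nd2 was at 49832 TPM in heart, 17621 in liver, 16554 in brain, 8637 in eyes, 4684 in MEFs, 4537 in prostate, 3888 in spleen and only 1522 in testes, and liver, where it was above mt-Nd1, held its largest share of the summed messenger RNA, 16.01%. mt-Nd5 ranged from 1181 TPM in testes to 33278 in heart. mt-Nd4 ranged from 846 TPM in testes to 28362 in heart, and it has an identical nuclear copy of its 5′ part, as mt-Co1 has of its 3′ part. Its ratio to mt-Nd5 lay between 0.716 in testes and 1.13 in prostate.

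mt-Nd6 is the only messenger RNA on the minus strand, and it abuts mt-Nd5 with an overlap of 14 bases. Its mean was 32371 TPM in heart, 9496 in brain, 6142 in eyes, 5794 in liver, 4259 in prostate, 3211 in MEFs, 2926 in spleen and 1113 in testes. Those means were 0.847 to 0.973 times the level of mt-Nd5 in all tissues but prostate, where the factor was 1.32. The library kit does not keep strand, so reads of mt-Nd6 cannot be told apart from reads of the transcript opposite to it.

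The second set lay in the stretch copied on chromosome 1. mt-Co2 and mt-Co3 encode the other mitochondrial subunits of complex IV, mt-Atp6 and mt-Atp8 those of the ATP synthase, and mt-Nd4l a small subunit of complex I. Their wild-type means lay between 0.112 and 2.00 TPM in testes, brain, eyes, liver, prostate and spleen, between 4.15 and 7.73 TPM in heart and between 5.58 and 16.4 TPM in MEFs. In wild type mt-Co2 was at 16.4 TPM in MEFs, 5.50 in heart, 1.98 in brain, 0.844 in eyes, 0.765 in spleen, 0.680 in testes, 0.368 in liver and 0.296 in prostate. mt-Atp8 and mt-Nd4l are listed in heart, eyes, MEFs and liver only. In MEFs, where these genes were highest, the lowest of the 7 abundant messenger RNAs was still 149-fold above the highest of them, and in prostate the factor was 10867. The authors counted uniquely mapped reads only, so the values of mt-Co2, mt-Atp6, mt-Co3 and mt-Nd4l, whose copies are identical, are not levels of the transcripts, and differences in them between genotypes are not read as such below. mt-Atp8 lies between the copies of mt-Co2 and mt-Atp6 and overlaps the latter by 43 bases, but the rest of it and the transfer RNAs mt-Tg and mt-Tr, which also lie between copies, were not compared with chromosome 1, and the low values of mt-Atp8 are given with that limit.

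mt-Nd3, a complex I subunit whose nuclear copy differs by the T3C base alone, had intermediate values. After that base, 342 of its 348 bases are identical to the copy, so reads that fall wholly within them are left out. Its values are therefore not read as levels of the transcript. The wild-type mean of mt-Nd3 was 352 TPM in heart, 251 in brain, 93.5 in eyes, 37.7 in liver, 32.5 in spleen, 27.5 in MEFs, 12.5 in prostate and 1.64 in testes.

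**Figure D1:**
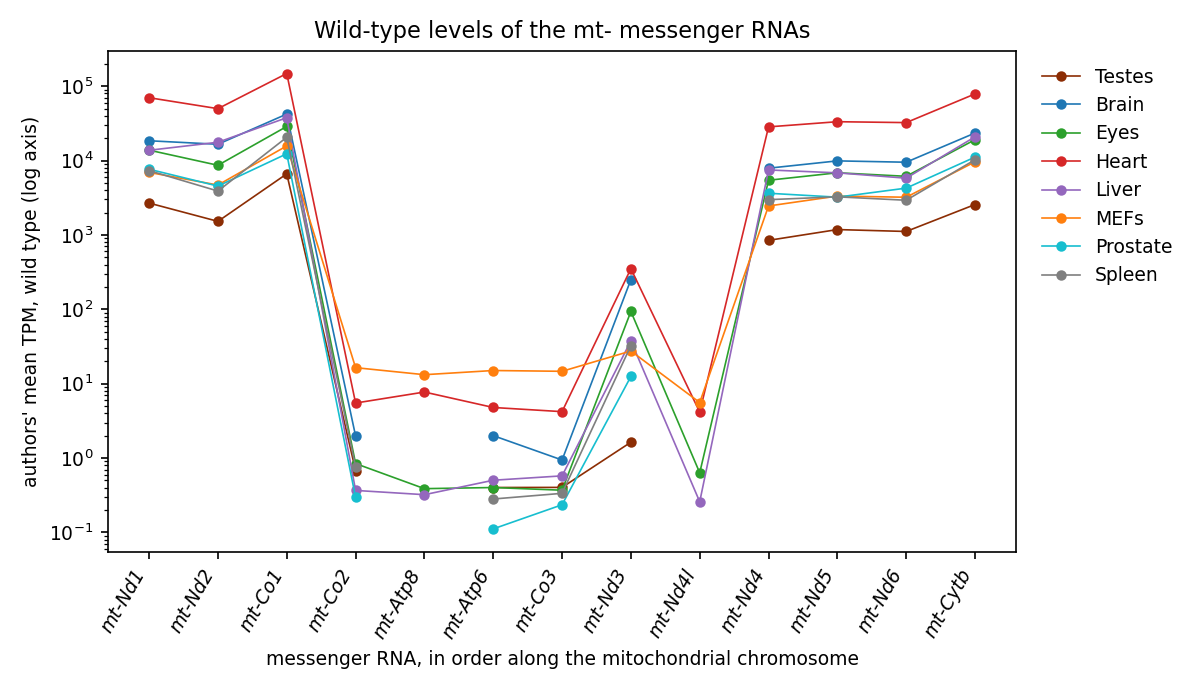
The authors' mean TPM of the 13 messenger RNAs (log axis) in the wild-type group of each of the 8 tissues, in gene order, each line joining the genes of 1 tissue and broken where a gene is not listed. The 7 abundant messenger RNAs lie between 846 and 147917 TPM, whereas mt-Co2, mt-Atp8, mt-Atp6, mt-Co3 and mt-Nd4l lie between 0.112 and 16.4 TPM in all 8 tissues.

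The ribosomal RNAs mt-Rnr1 and mt-Rnr2, the RNAs of the small and large subunit of the mitochondrial ribosome, were below each of the 7 abundant messenger RNAs in wild-type heart, eyes, liver, spleen, prostate, MEFs and testes. In brain they lay among the lower of them, mt-Rnr2 above mt-Nd4, mt-Nd5 and mt-Nd6 and mt-Rnr1 above mt-Nd4 and mt-Nd6. mt-Rnr1 was at 9689 TPM in brain, 5805 in heart, 1339 in liver, 1147 in spleen, 1142 in eyes, 984 in prostate, 409 in MEFs and 211 in testes. mt-Rnr2 was at 11004 TPM in heart, 10306 in brain, 2155 in eyes, 1427 in spleen, 1368 in liver, 1044 in prostate, 545 in MEFs and 251 in testes. Their sum was 15.6% of the summed messenger RNA in brain and 2.07% to 5.02% in the other wild-type tissues. The brain libraries come from outside this series, so tissue and origin of the library cannot be told apart for this share. mt-Rnr2 was 1.90 times mt-Rnr1 in heart, 1.89 times in eyes and 1.02 to 1.33 times in the other wild-type tissues. Because the libraries were made from polyadenylated RNA, ribosomal levels set against messenger levels are those captured and not proportions in the cell.

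Values counted for a transfer RNA can include reads of longer precursors that hold it. As the kit does not keep strand, they can also include reads of the transcript opposite to it. With that limit, among the transfer RNAs, all 59 to 75 bases long, mt-Tp was the highest in every wild-type tissue. It was at 8505 TPM in heart, 4808 in liver, 3926 in brain, 1542 in eyes, 1383 in MEFs, 1143 in prostate, 859 in spleen and only 322 in testes, with mean normalized counts of 826 to 11051 outside testes. mt-Tp alone made up between 50.1% of the summed transfer RNA in heart and 83.8% in spleen. It is annotated on the minus strand directly next to mt-Tt, which is annotated on the plus strand and was at no more than 51.9 TPM in wild type. mt-Te, which abuts mt-Nd6 on the same strand, was second in brain, eyes, heart, liver, prostate and spleen, and it ranged from 55.0 TPM in spleen to 2780.1 in heart.

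The third by its median over the tissues was mt-Tc, at 92.9 TPM. The lowest medians were those of mt-Tr (3.89 TPM), mt-Tv (3.94 TPM, listed in brain, eyes and heart) and mt-Tq (8.12 TPM). The medians of the other 12 listed transfer RNAs lay between these limits. Few reads stand behind many of these values: transfer RNAs with a mean normalized count under 10 numbered 11 of 16 in spleen, 8 of 16 in MEFs, 8 of 12 in prostate, 4 of 18 in brain, 3 of 17 in eyes, 2 of 16 in liver and 1 of 17 in heart.

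The order of the transfer RNAs was not the same in all tissues. mt-Tn, mt-Tc and mt-Ty lie next to each other on the minus strand, with the origin of light-strand replication in the 32 bases between the first and the second. Together they made up 21.3% of the summed transfer RNA in wild-type testes and 19.8% in wild-type MEFs, against 1.32% to 4.79% in the other 6 tissues. In MEFs mt-Tn was at 223 TPM, mt-Tc at 148 and mt-Ty at 35.3. In testes they were at 31.2, 84.2 and 17.8 TPM. In heart, where 11 of the 17 listed transfer RNAs had their highest wild-type level, mt-Tn was at 59.9 TPM, mt-Tc at 752 TPM, and mt-Ty is not listed. The shares in Tug1-/- samples were 19.997% in testes and 15.5% in MEFs.

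**Figure D2:**
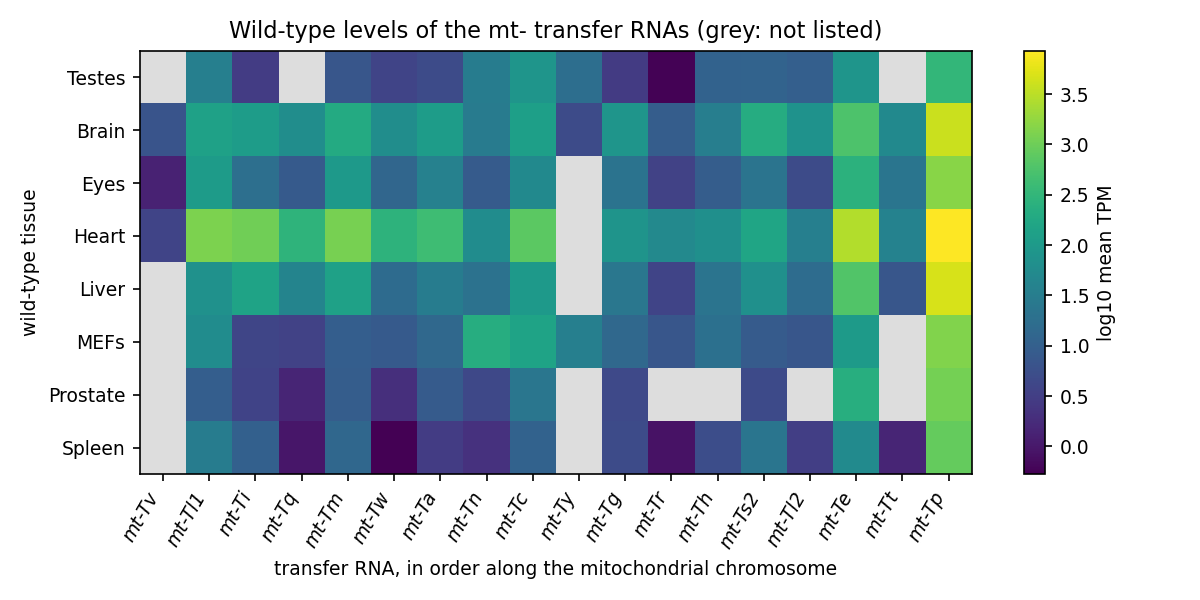
The log10 of the authors' mean TPM of the 18 listed transfer RNAs in the wild-type group of each tissue, in gene order, with grey where a gene is not listed. mt-Tp is the brightest column in all 8 rows, and mt-Tn is brighter in MEFs (223 TPM) than in heart (59.9 TPM).

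Nuclear genes whose wild-type profile over the 8 tissues was most like that of the summed messenger RNAs were, in order of the Pearson correlation of log2(mean TPM + 1), Uqcrc2 (0.995), Atp5k (0.984), Atp5a1 (0.981), Cyc1 (0.978) and Acot13 (0.973), out of 12633 protein-coding genes compared. These are descriptions over 8 points, 1 of them the brain, that share the scale of TPM within each table. Uqcrc2 and Cyc1 encode nuclear subunits of complex III, and Atp5k and Atp5a1 encode nuclear subunits of the ATP synthase. Uqcrc2 was at 719.6 TPM in heart, 358 in brain and 107 in testes.

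The comparison of Tug1-/- with wild type asks how these RNAs stood in each tissue once the locus was deleted. In testes, the summed messenger RNA was 16535 TPM in wild type against 17572 TPM in Tug1-/- mice, a ratio of 1.06. mt-Co1 was at 6624 and 7413 TPM (1.12-fold), and the other 6 abundant messenger RNAs were within 0.990 to 1.06 of wild type. mt-Rnr1 was at 211 and 253 TPM and mt-Rnr2 at 251 and 280.3 TPM. Of the 25 members that reached 1 TPM, 4 were higher and 1 was lower by more than 1.5-fold, beside 2.97% and 3.72% of all genes. The 7 abundant messenger RNAs and both ribosomal RNAs stayed within the limit. All 4 skeletal muscle markers were higher in Tug1-/- testes, with Acta1 at 0.3804 and 14.8 TPM, Mylpf at 2.91 and 8.70, Ckm at 0.7005 and 3.37 and Myh2 at 0.0500 and 0.364. The red cell markers Hbb-bs and Hba-a1 were at 16.6 and 9.18 TPM and at 6.36 and 3.28 TPM, and Alas2 was at 18.3 and 23.9 TPM. Their part in the mitochondrial values was not tested.

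The 4 higher members in Tug1-/- testes were neighbours mt-Tg, mt-Nd3 and mt-Tr, and mt-Ta, the transfer RNA for alanine. mt-Nd3 was at 1.64 TPM in wild type, 11.5 TPM in Tug1-/- and 10.2 TPM in rescue testes, a ratio of 7.04 for Tug1-/- and 6.23 for rescue over wild type. mt-Tg, which ends 3 bases before the differing base of mt-Nd3, was at 2.83, 11.6 and 19.3 TPM in the same groups. mt-Tr, which begins 347 bases after that base, was at 0.566, 5.77 and 5.41 TPM. Read across the groups, all 3 genes were low in wild type and high in both groups homozygous for the deletion. mt-Ta was at 4.87, 7.60 and 8.47 TPM. mt-Ti, the transfer RNA for isoleucine and the only lower member, was at 2.97, 1.19 and 0.655 TPM. No mean normalized count was used for testes, so the number of reads behind these low values is not known here. With a minimum of 10 TPM, 2 members were higher and none was lower in Tug1-/- testes.

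The nuclear copy differed in the opposite direction. Gm28438 was at 7.40 TPM in wild-type testes, 0.405 TPM in Tug1-/- and 0.631 TPM in rescue testes. The sum of mt-Nd3 and Gm28438 was 9.03, 11.9 and 10.8 TPM, so the ratio of the sum for Tug1-/- over wild type was 1.32 in place of 7.04. mt-Nd3 made up 18.1% of the pair in wild-type testes, 96.6% in Tug1-/- testes and 94.2% in rescue testes. In the other tissues it made up 92.9% to 99.2% of the pair in wild type and 92.0% to 99.5% in Tug1-/- samples. Wild-type testes thus stood apart from every other group. Which base the mice carry at the position of T3C was not read here, and the part of the mitochondrial sequence in this difference was not tested.

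**Figure D3:**
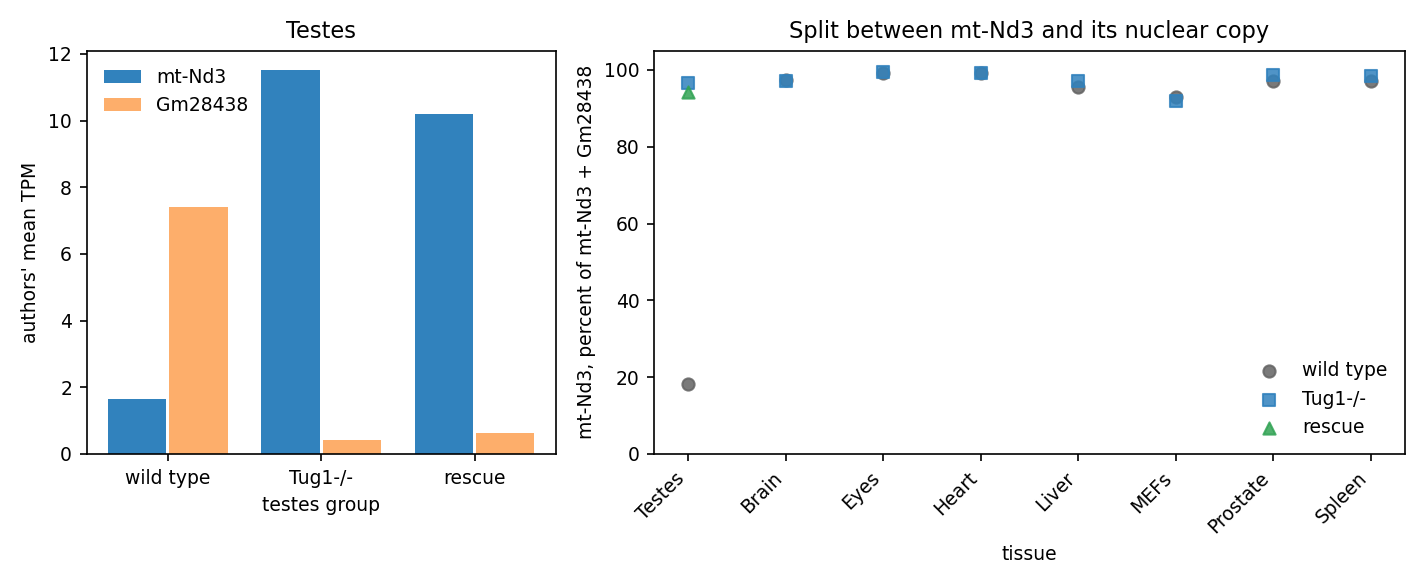
Left, bars of the authors' mean TPM of mt-Nd3 and of its nuclear copy Gm28438 in the 3 testes groups. Right, mt-Nd3 as a percent of the 2 summed in each tissue and group, where wild-type testes lie at 18.1% and all other points at 92.0% or above.

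In rescue testes the summed messenger RNA was 19815 TPM, which was 1.13 times the Tug1-/- mean and 1.20 times the wild-type mean. These ratios share the rescue libraries with each other and each shares a group with the Tug1-/- over wild-type ratio. mt-Nd2 was at 1522 TPM in wild type, 1536 in Tug1-/- and 2039 in rescue. mt-Cytb was at 2565, 2612 and 3296 TPM, and mt-Nd4 at 846, 837 and 1061 TPM. mt-Nd1 was at 2681, 2829.9 and 3149 TPM, mt-Nd5 at 1181, 1192 and 1359.7 TPM, mt-Nd6 at 1113, 1139.9 and 1278 TPM and mt-Co1 at 6624, 7413 and 7619.6 TPM. In all 7 abundant messenger RNAs the rescue mean was above both other means. The ribosomal RNAs were below Tug1-/- in rescue and near wild type, with mt-Rnr1 at 219 TPM (0.866 of Tug1-/- and 1.04 of wild type) and mt-Rnr2 at 255 TPM (0.909 and 1.02). Over Tug1-/- testes, 1 member (mt-Tg) was higher and 1 (mt-Ti) lower by more than 1.5-fold, beside 1.59% and 3.48% of all genes. Over wild type, 4 members (mt-Nd3, mt-Tg, mt-Tr and mt-Ta) were higher and 1 (mt-Ti) was lower, beside 3.05% and 5.38% of all genes.

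In MEFs, fibroblasts grown from male embryos, the mitochondrial RNAs were lower in Tug1-/- cells. The summed messenger RNA was 46058 TPM in wild type against 32021 TPM in Tug1-/- cells, a ratio of 0.695. Each of the 7 abundant messenger RNAs was below wild type. mt-Nd4 was at 2451 and 1400.2 TPM (ratio 0.571), mt-Nd5 at 3333 and 1999 TPM (0.600) and mt-Nd6 at 3211 and 1944 TPM (0.605), and these 3 were past the limit with mean normalized counts of 14021 to 50997. The other abundant messenger RNAs stayed within it. mt-Cytb was at 9615 and 6488 TPM (0.675), mt-Nd2 at 4684 and 3188 TPM (0.681), mt-Nd1 at 6931 and 5095 TPM (0.735) and mt-Co1 at 15740.0 and 11835 TPM (0.752). Fewer mitochondria or fewer cells rich in them and less RNA in each cannot be told apart in bulk samples, here or in the tissues that follow.

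The summed ribosomal RNA of MEFs was lower by less, at a ratio of 0.830. mt-Rnr1 was at 409 and 383 TPM (ratio 0.936). mt-Rnr2, at 545 and 409 TPM (0.750), was about as low against wild type as mt-Co1 (0.752). Over all classes, 11 of 31 members were lower and 2 were higher by more than 1.5-fold, beside 4.23% and 4.03% of all genes. The 11 comprised mt-Nd4, mt-Nd5, mt-Nd6, mt-Nd4l, which lies in the copied stretch, and 7 transfer RNAs. Of the 7, mt-Te was at 104 and 45.6 TPM (0.438), mt-Tn at 223 and 138 TPM (0.618), mt-Tl1 at 59.1 and 34.1 TPM (0.577) and mt-Ty at 35.3 and 20.3 TPM (0.576). The remaining 3, mt-Ta, mt-Ti and mt-Tq, had mean normalized counts of 8.04, 1.84 and 1.44. The 2 higher members, mt-Tr and mt-Tl2, had mean normalized counts of 7.80 and 6.51. The median log2 ratio of the 7 abundant messenger RNAs was -0.57, against 0.05 over all genes.

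In eyes the mitochondrial RNAs were higher in Tug1-/- mice. The summed messenger RNA was 88781 TPM in wild type against 111018 TPM in Tug1-/- eyes, a ratio of 1.2505. mt-Nd2 was at 8637 and 11239 TPM (1.301), mt-Co1 at 28733 and 36852 TPM (1.28), mt-Nd6 at 6142 and 7834 TPM (1.28) and mt-Nd5 at 6851 and 8679 TPM (1.27). The other 3 abundant messenger RNAs lay between 1.20 and 1.24 times wild type, so all 7 were higher by a similar factor. mt-Rnr1 was at 1142 and 1575 TPM (1.38) and mt-Rnr2 at 2155 and 2762 TPM (1.28), and mt-Tp was at 1542 and 2057 TPM (1.33).

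All 28 members that reached 1 TPM in eyes had a higher mean in Tug1-/- mice, and 8 of them were past 1.5-fold, with none lower past it, beside 3.35% of genes higher and 5.19% lower. The 8 were mt-Atp8 and the transfer RNAs mt-Tw, mt-Th, mt-Tq, mt-Ti, mt-Tl2, mt-Tv and mt-Tr, of which mt-Atp8 and mt-Tr lie between the ends of the copied stretch, at no more than 29.8 TPM and with mean normalized counts of at most 22.1. The median log2 ratio of the 7 abundant messenger RNAs was 0.34, against -0.11 over all genes. Markers of other tissue moved with this difference. Of the 4 skeletal muscle markers all were higher in Tug1-/- eyes: Acta1 was at 1277 and 2464 TPM, Mylpf at 1384 and 2379.6, Ckm at 630.2 and 1112 and Myh2 at 99.8 and 130.2. All 3 red cell markers were higher as well, with Hbb-bs at 439 and 1396 TPM, Hba-a1 at 133 and 371 and Alas2 at 17.5 and 49.6. Of the brown fat markers, Cidea was at 10.5 and 20.8 TPM and Ucp1 at 1.70 and 0.354 TPM. Their part in the higher mitochondrial RNA was not tested.

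In spleen the messenger RNAs were lower in Tug1-/- mice, at a sum of 51221 TPM in wild type against 42093 TPM in Tug1-/-, a ratio of 0.822. mt-Nd1 was at 7324 and 5811 TPM (0.793), mt-Nd6 at 2926 and 2323 TPM (0.794) and mt-Cytb at 10251 and 8161 TPM (0.796). mt-Nd5 was at 3254 and 2656 TPM (0.816), mt-Nd4 at 2979 and 2494 TPM (0.837), mt-Co1 at 20565 and 17301 TPM (0.841) and mt-Nd2 at 3888 and 3321 TPM (0.854). All 7 were lower and none was past the limit. The ribosomal RNAs were not lower, mt-Rnr1 at 1147 and 1156 TPM and mt-Rnr2 at 1427 and 1555 TPM.

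Of the 24 spleen members that reached 1 TPM, 5 transfer RNAs (mt-Ts2, mt-Tc, mt-Th, mt-Tl2 and mt-Tn) were lower and 1 (mt-Tq) was higher by more than 1.5-fold, beside 5.57% of genes in each direction. Of these 6 only mt-Ts2, the transfer RNA for serine, at 22.6 and 11.7 TPM, had a mean normalized count above 10. The median log2 ratio over all genes was -0.11, against -0.29 for the 7 abundant messenger RNAs. Red cell markers were higher in Tug1-/- spleen, with Hbb-bs at 15293 and 26982 TPM, Hba-a1 at 3614 and 6922 and Alas2 at 615 and 1226. Digestive enzymes made by the pancreas, looked up after their values were seen, were present in Tug1-/- spleen and near 0 in wild type, with Pnlip at 1.91 and 1357 TPM, Prss2 at 3.21 and 1406, Cela2a at 1.43 and 945 and Cpa1 at 1.23 and 671. The part of these markers in the lower mitochondrial RNA was not tested.

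In heart the summed messenger RNA was 440801 TPM in wild type against 405750 TPM in Tug1-/- mice, a ratio of 0.920. mt-Co1 was at 147917 and 142332 TPM (0.962) and mt-Nd2 at 49832 and 46728 TPM (0.938). The other 5 abundant messenger RNAs lay between 0.885 and 0.897 of wild type, with mt-Cytb at 78687 and 70575 TPM. All 7 were lower by a small factor. TPM values of a group sum to a fixed total, so a lower value of genes that hold 44.1% of it comes with higher values of others, and the median log2 ratio over all genes was 0.10. mt-Rnr1 was at 5805 and 6218 TPM and mt-Rnr2 at 11004 and 11356 TPM, higher in Tug1-/- as given. Their summed ratio of 1.05 became 0.977 when TPM was rescaled over the genes outside the mitochondrial set. It became 0.970 when TPM was divided by the median ratio of nuclear genes. Under the same settings the summed messenger ratio of 0.920 became 0.861 and 0.854.

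Of 32 heart members, 3 were lower and none higher by more than 1.5-fold, beside 2.69% and 2.22% of all genes. These were mt-Atp8, mt-Nd4l and mt-Tr, the last at 51.5 and 29.1 TPM, and all 3 lie between the ends of the stretch copied on chromosome 1. mt-Te was at 2780.1 and 2103 TPM (0.756) and mt-Tm, the transfer RNA for methionine, at 1151 and 871 TPM (0.757), within the limit. Markers of skeletal muscle differed in opposite directions, with Mylpf at 20.2 and 1.34 TPM, Myh2 at 3.78 and 0.0169, Acta1 at 234 and 177 and Ckm at 1005 and 1199. The brown fat markers Ucp1 and Cidea were at 29.7 and 15.7 TPM and at 55.6 and 51.1 TPM, and the 3 red cell markers were at 0.797 to 0.830 of wild type. Their part in the difference was not tested.

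In liver the messenger and ribosomal RNAs differed in direction. The summed messenger RNA was 110038 TPM in wild type against 101912 TPM in Tug1-/- mice, a ratio of 0.926, and the 7 abundant messenger RNAs lay between 0.913 and 0.953 of wild type. mt-Co1 was at 37659 and 34447 TPM and mt-Cytb at 20868 and 19058 TPM. mt-Rnr1 was at 1339 and 1845 TPM (1.38) and mt-Rnr2 at 1368 and 1739 TPM (1.27). The ribosomal sum was 2.46% of the messenger sum in wild type and 3.52% in Tug1-/- liver. Of 26 members that reached 1 TPM, mt-Ta was higher (30.5 and 47.2 TPM) and mt-Tn lower (20.2 and 11.3 TPM) by more than 1.5-fold, beside 3.66% and 2.86% of all genes.

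In prostate the 2 classes differed most. The summed messenger RNA was 46765 TPM in wild type against 47901 TPM in Tug1-/- mice, a ratio of 1.02, and the 7 abundant messenger RNAs lay between 0.985 and 1.06 of wild type. mt-Rnr1 was at 984 TPM in wild type against 329.9 TPM in Tug1-/- prostate, a ratio of 0.335. mt-Rnr2 was at 1044 and 383 TPM, a ratio of 0.367. The ribosomal sum was 4.34% of the messenger sum in wild type and 1.49% in Tug1-/- prostate. Mean normalized counts of 9604 and 17118 stand behind the ribosomal values, which rest on 3 wild-type and 2 Tug1-/- samples. With group means alone, it cannot be seen whether all 3 wild-type libraries or a single one held the high ribosomal values.

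Some other RNAs differed in prostate in the same direction as the ribosomal RNAs. Rn7sk, a nuclear RNA made by RNA polymerase III that has no poly(A) tail, was at 292 TPM in wild-type prostate against 1.51 TPM without Tug1. Lars2, the gene of the mitochondrial leucyl-tRNA synthetase, was at 614 and 18.5 TPM. Malat1, a nuclear long noncoding RNA, was at 151 and 97.3 TPM. The histone genes Hist1h1c, at 106 and 119 TPM, Hist1h2bc, at 72.9 and 87.7, and Hist1h4i, at 5.76 and 8.42, had a higher mean in Tug1-/- prostate but were all within 1.5-fold. These 6 genes were chosen after their values were seen. In the other 7 tissues the means of Rn7sk lay between 1.44 and 13.01 TPM and those of Lars2 between 14.0 and 72.0 TPM. Whether the same libraries carried all of these high values cannot be seen in means, and their part in the lower ribosomal RNAs of Tug1-/- prostate was not tested.

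Of the 22 prostate members that reached 1 TPM, the 2 ribosomal RNAs were lower and 8 transfer RNAs were higher by more than 1.5-fold, beside 2.93% and 5.63% of all genes. mt-Tc was at 23.7 and 41.8 TPM (1.76) and mt-Tl1 at 9.62 and 15.9 TPM (1.65), with mean normalized counts of 26.6 and 12.0. The other 6, mt-Tw, mt-Ti, mt-Tq, mt-Tg, mt-Tn and mt-Ts2, were at no more than 9.92 TPM with mean normalized counts of 6.03 or less. Of the red cell markers, Hbb-bs was at 101 and 196 TPM, Hba-a1 at 30.4 and 50.2 and Alas2 at 10.4 and 10.8, and their part was not tested. The abundant mt-Tp was at 1143 and 1115 TPM and mt-Te at 226 and 233 TPM.

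In brain the ratios of the 7 abundant messenger RNAs lay closest together, with those of liver next. The summed messenger RNA was 128166 TPM in wild type against 131666 TPM in Tug1-/- mice, a ratio of 1.03, and the 7 abundant messenger RNAs lay between 1.009 and 1.05 of wild type. mt-Rnr1 was at 9689 and 10139 TPM and mt-Rnr2 at 10306 and 10433 TPM. Of 30 members that reached 1 TPM, mt-Tv was higher by more than 1.5-fold (6.49 and 14.8 TPM), and mt-Ty and the copied-stretch genes mt-Co2 and mt-Atp6 were lower, mt-Ty being listed at 0 in Tug1-/- brain, beside 2.43% of genes higher and 4.24% lower. All 4 had mean normalized counts of 5.67 or less.

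**Figure D4:**
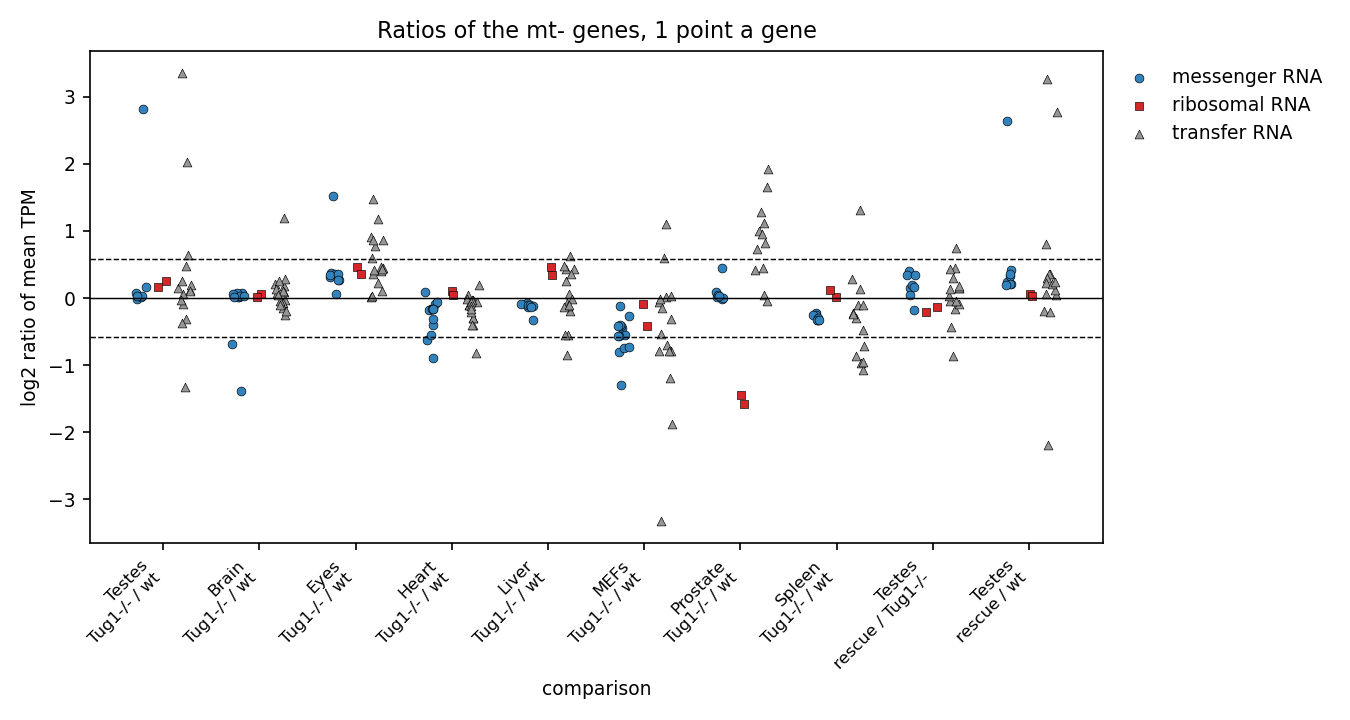
The log2 ratio of the authors' mean TPM of each mt- gene that reaches 1 TPM, 1 point a gene (a gene listed at 0 is not drawn), in the 8 Tug1-/- over wild-type comparisons and in rescue testes, with dashed lines at 1.5-fold. The ribosomal RNAs of prostate lie at ratios of 0.335 and 0.367, and mt-Nd3 of testes lies at 7.04, whereas the abundant messenger RNAs lie between 1.20 and 1.301 in eyes and between 0.571 and 0.752 in MEFs.

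The proportions of the 7 abundant messenger RNAs among themselves differed between genotypes by at most 2.78 percentage points. The share of mt-Cytb in the summed messenger RNA differed between Tug1-/- and wild type by -0.89 to -0.16 percentage points, and that of mt-Nd2 by -0.47 to 0.40 points. The share of mt-Co1 differed by -0.42 points in liver and by 2.78 points in MEFs, where it was 34.2% in wild type and 37.0% in Tug1-/- cells. mt-Cytb was a smaller share in Tug1-/- samples in all 8 tissues, and mt-Co1 a larger share in all but liver. In MEFs mt-Nd4, mt-Nd5 and mt-Nd6 had shares that differed by -0.95, -0.99 and -0.90 points.

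**Figure D5:**
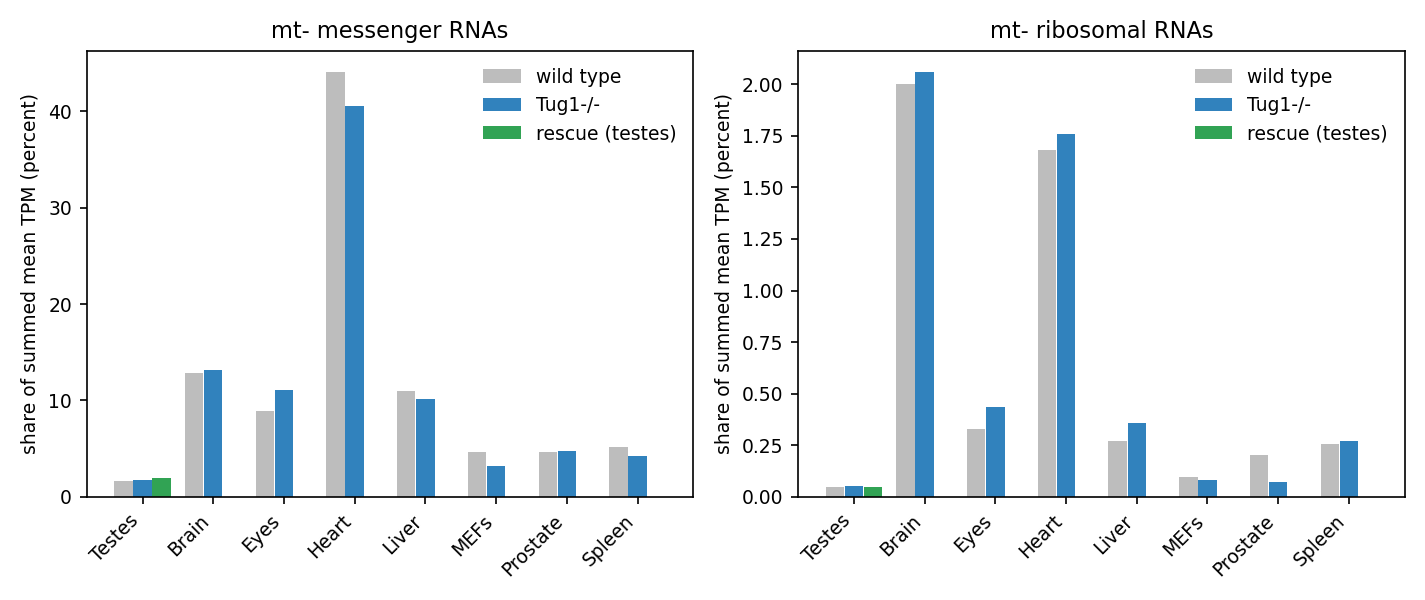
Bars of the summed mean TPM of the messenger RNAs (left) and of the ribosomal RNAs (right), as a percent of the summed mean TPM of all genes, in wild-type, Tug1-/- and, for testes, rescue groups. The messenger RNAs reach 44.1% in wild-type heart and 1.65% in wild-type testes, and the ribosomal RNAs of prostate are at 0.203% in wild type and 0.0713% in Tug1-/- mice.

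A list of 49 nuclear genes that maintain mitochondrial DNA or make, process and modify its RNA, all of them listed, was read beside the members. It holds among others the transcription factor Tfam, the polymerase Polrmt, the messenger RNA stabilisers Lrpprc and Slirp and the precursor-cutting enzymes Elac2 and Trmt10c. In 9 of the 10 comparisons none of its genes was past the limit in either direction. The shares of all genes past it were 1.59% to 5.63% per direction. Among 49 genes such shares come to few genes, so the count of 0 is not read as a result about the list. In liver, where 2.86% of all genes were lower past the limit, Mterf2, which encodes a protein of the mitochondrial transcription termination factor family, was at 3.42 and 2.12 TPM, a ratio of 0.621. In MEFs, where the messenger RNAs were lower, the median log2 ratio of the 49 genes was 0.17, against 0.05 over all genes tested, and in eyes, where they were higher, it was -0.06 against -0.11.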

How the data were processed

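Polyadenylated RNA was sequenced by the authors, who prepared libraries with a kit that does not keep strand, aligned reads to GRCm38 with STAR and used featureCounts to count the uniquely mapped reads of each gene. Whether counting used strand is not stated. Genes under 3 reads in every replicate were removed by the authors. The deposited tables give group means in TPM, and outside testes a signal, the authors' mean normalized count over both genotypes. They also hold the authors' fold changes, standard errors, statistics, p-values and calls, which were not used. No column of single samples was used (0 left aside), so depth per sample is unknown and neither errors, intervals nor tests could be computed.

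Of 52 samples, 46 lie behind the tables, brain means come from libraries outside the series, and 6 F1 hybrid testes were not analysed here. Ratios of means were computed in Python 3.11.15 (numpy 2.4.6, pandas 2.3.3, matplotlib 3.10.9) and set beside the same over all genes of at least 1 TPM in either group. Members and lists were chosen with earlier results of these data known. Every member is accounted for: messenger and ribosomal RNAs are named, and transfer RNAs where they pass 1.5-fold or are among the 3 highest or lowest by median. Nuclear genes named are Tug1, tissue markers, list members past that limit, the chromosome 1 copies between 24600000 and 24620000, and the 5 nearest profiles among protein-coding genes of at least 10 TPM in 1 tissue. Outside this rule, mt-Tm and mt-Tt are named for their level or place, 6 genes of the list are named as examples of what it holds, and Rn7sk, Lars2, Malat1, 3 histone genes and 4 pancreatic enzymes were named after their values were seen. Copies were aligned without gaps, with sequences from GENCODE M21 transcripts (GRCm38), whose mitochondrial coordinates equal those of the tables. Alternatives were other scales, sums, pseudocounts, folds and minimum values.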

Additional observations from a re-analysis of the deposited data

How the results depend on the processing

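No paired analysis was possible because the tables hold group means and no values of single samples, and for the same reason no replicate could be left out. A ratio was counted as moved when it crossed 1 or shifted by more than 1.5 times. The summed messenger ratio kept its side of 1 in all 10 comparisons under all 6 alternatives, except in prostate, where division by the median ratio of nuclear genes gave 0.993. With the added rescalings the summed ribosomal ratio crossed 1 in heart (0.977 over genes outside the set, 0.970 by the median ratio) and for rescue over wild type (0.989 by the median ratio), and in prostate it lay between 0.341 and 0.351. These settings moved the median of all genes by up to 0.11 (log2) in heart. Counts of members past the limit depended on the limit itself. At a lower fold limit (0.32 in log2) they were 22 in MEFs, 20 in eyes, 11 in liver, 11 in spleen, 7 in heart, 8 for rescue over Tug1-/- and 10 for rescue over wild type. At a fold of 2 they were 6 in prostate, 5 in MEFs, 3 in eyes, 2 in spleen, 0 in heart, 0 in liver and 0 for rescue over Tug1-/-. With no minimum TPM they were 5 in liver and 10 in spleen. With a minimum of 10 TPM they were 4 in eyes, 4 in prostate, 2 in spleen, 2 in testes, 1 in brain, 1 in heart, 1 for rescue over Tug1-/- and 2 for rescue over wild type. With 1 TPM added to both means, rescue over Tug1-/- gave 1. With a mean normalized count of at least 10, a filter chosen after seeing the data, they were 8 in MEFs, 4 in eyes, 4 in prostate, 1 in spleen and 0 in brain, since fewer genes enter. mt-Nd3 summed with Gm28438 in testes gave 1.32 for Tug1-/- over wild type and 1.20 for rescue over wild type. Low mean normalized counts limit the transfer RNAs most.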
